A study of Mus musculus with 34 samples.

Results

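The 8 genes Fgfr1, Fgfr2, Fgfr3, Fgfr4, Egfr, Erbb2, Erbb3 and Met encode the receptors for fibroblast growth factors, for the epidermal growth factor family and for hepatocyte growth factor. They were chosen by name from the 21738 protein-coding genes of the mouse annotation. All ATAC-seq peaks whose summit fell in the gene body, up to 50 kb upstream or up to 5 kb downstream of it were taken as their sites. ATAC-seq inserts sequencing adapters into open chromatin, and a peak is a stretch where more fragments pile up than the local background explains. Overlapping peaks of all 34 libraries were merged into 252803 regions, and 208 of these lay in the windows of the 8 receptor genes. A region is named here by its gene and by the distance of its median summit from the gene's start, so that Egfr +48.5 kb lies 48.5 kb downstream of its start.

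All libraries came from mouse hair follicle stem cells (HFSCs), which renew the follicle at each hair cycle and engulf dying neighbours when the follicle regresses. In vivo, HFSCs were sorted from skin in full growth (AnaVI, wild type, 2 libraries) or at the end of regression (CatVII, wild type, 6 libraries), and at CatVII from Rxra WT (4 libraries) and Rxra cKO mice (3 libraries). Rxra encodes a retinoid X receptor. The conditional knockout carried Rxra fl/fl, Sox9-creER and a R26-YFP reporter. The cultured Rxra WT cells were Rxra +/+ with Sox9-creER and the reporter. For the HFSCs sorted for ATAC-seq, the study gives Rxra WT likewise as Rxra +/+ with Sox9-creER and the reporter. Its general methods also list control mice that lacked Sox9-creER or carried it with Rxra fl/+. The labels give no such detail for a single library. Sox9-creER recombines in Sox9-expressing cells after tamoxifen, so deletion was limited to that lineage, and cells were cultured on growth-arrested feeder fibroblasts and sorted by YFP. Cultured Rxra WT or cKO cells were kept in medium (2 and 2 libraries), given retinoic acid with the lipids arachidonic acid and lysophosphatidylcholine (AA LPC RA, 2 and 2 libraries) or given apoptotic corpses (4 and 3 libraries), and cultured Rxra WT cells were also given BEL-treated corpses (4 libraries). Corpses were HFSCs killed with cisplatin, and BEL (bromoenol lactone) inhibits the phospholipase that releases lysophosphatidylcholine and fatty acids from dying cells. The peak names stored in the lists carried age tags of P33 for AnaVI, P37 for CatVII wild type, P42 for all Rxra cKO and for Rxra WT replicate 1, and P37 for Rxra WT replicates 2 to 4. They also carried a Phago or NonPhago tag. It was Phago in CatVII wild type replicates 1 to 3, Rxra cKO replicate 3 in vivo, Rxra WT replicates 3 and 4 with corpses and with BEL-treated corpses, cKO replicate 3 with corpses and both Rxra WT libraries with AA LPC RA, NonPhago in all others outside AnaVI, and absent in AnaVI. The part of this tag in the results was not tested. The titles of the CatVII Rxra libraries number them m1 to m4 and m1 to m3, but the stored names of Rxra cKO replicates 2 and 3 both carry m2, and the other titles give a replicate number only. In CatVII wild type and in Rxra WT cultures with corpses or BEL-treated corpses, the stored names number Phago and NonPhago libraries separately, each from 1. The labels do not say whether same-numbered ones share animals or a culture. The study calls its culture libraries biological replicates. The p-values below thus measure the spread between libraries, part of which may be technical.

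Depth differed widely between groups. The lists held from 4144 to 129876 peaks, and the estimated number of fragments ran from 2280000 to 64200000. Of 9 promoters of HFSC marker genes, 2 and 8 were called in the AnaVI libraries, 1 to 9 in each CatVII wild type library, 8 or 9 in each CatVII Rxra library and 5 to 8 in each cultured library other than medium, but 0 to 2 in the 4 medium libraries. Cd34, the defining surface marker of the bulge, had a promoter peak in 8 libraries, all in vivo. Per library, 0 to 4 of 7 fibroblast promoters, 0 to 2 of 5 immune, 0 to 2 of 5 melanocyte and 0 to 2 of 4 endothelial promoters were called. Of these 21 genes, Ptprc, Cd3e, Col3a1, Dpt, Pmel, Tyr, Sox10, Cdh5 and Tie1 were called in 0 libraries, whereas Mitf was called in 28, Col1a1, Pdgfra and Cd68 in 21 each, Dct in 19, Csf1r in 15, Pecam1 in 14 and Kdr in 9. The part of other cell types in the results was not tested. The shortest peak, which MACS3 sets from the fragment length, was 58 and 89 bp for the AnaVI libraries, 126 to 150 bp for the CatVII wild type, 60 to 104 bp in Rxra WT cultures with corpses, 144 to 145 bp with BEL-treated corpses and 183 to 207 bp in medium. Fragment length therefore cannot be told apart from the groups in these comparisons. In sorted bulk cells, fewer cells with an open site and a less open site per cell cannot be told apart either. The deletion of Rxra itself was not checked, since a peak list holds no reads over a deleted exon.

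Receptor tyrosine kinases span the cell membrane, pair up when a ligand binds outside and phosphorylate tyrosines inside, which recruits adaptors and starts the RAS and MAP kinase and the PI3 kinase cascades. In the hair follicle, Fgfr1 and Fgfr2 receive signals from the dermal papilla and the niche, Egfr is needed for passage from growth to regression, and Met receives hepatocyte growth factor from mesenchyme. Erbb2 has no known ligand and pairs with other family members, and Erbb3 binds neuregulins but has little kinase activity of its own.

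The gene bodies, taken as the span of the consensus coding transcripts, ran from 15.3 kb for Fgfr3 to 166 kb for Egfr. On GRCm39 (mm39), Egfr lies at chr11:16702198-16868158 on the plus strand and held 58 of the 208 regions. Fgfr2 at chr7:129763471-129868272 on the minus strand held 42, Met at chr6:17463749-17573979 on the plus strand 30 and Fgfr3 at chr5:33879067-33894412 on the plus strand 22. Fgfr1 at chr8:26008745-26066824 on the plus strand held 18, Erbb3 at chr10:128403392-128425536 on the minus strand 15, Erbb2 at chr11:98303203-98328542 on the plus strand 14, and Fgfr4 at chr13:55300352-55316572 on the plus strand 9. Per 100 kb of window, Fgfr3 had 31.3 regions, Fgfr2 26.3 and Egfr 26.2, against 12.6 for Fgfr4. By location, 115 regions were intronic, 70 upstream, 11 at a promoter of the gene itself (within 1 kb of a coding transcript's start), 5 in a UTR, 5 downstream and 2 in a coding exon. The promoter of another gene lay under 12 of the regions.

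The sequences of 12 sites on which the comparisons turn are shown first, each as the bases around the median summit, on the plus strand of the GRCm39 genome. Capitals mark a match to one of the short motifs searched, and all other bases are in lower case. The first set holds sites listed in every library of one group and in no library of the other, in lists cut to equal length. Weaker peaks past the cut could still be called in the other group, as given below. Egfr +48.5, Egfr +58.1 and Egfr +109.1 kb lie in introns 1, 1 and 3 of Egfr, and Erbb3 -37.2 kb lies at the promoter of the ribosomal protein gene Rps26.
Egfr +48.5 kb, chr11:16750621-16750721: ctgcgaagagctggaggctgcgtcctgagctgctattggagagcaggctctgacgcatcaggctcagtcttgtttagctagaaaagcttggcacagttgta
Egfr +58.1 kb, chr11:16760247-16760347: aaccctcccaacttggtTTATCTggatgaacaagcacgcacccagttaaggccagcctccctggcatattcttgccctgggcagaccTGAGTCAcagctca
Egfr +109.1 kb, chr11:16811279-16811379: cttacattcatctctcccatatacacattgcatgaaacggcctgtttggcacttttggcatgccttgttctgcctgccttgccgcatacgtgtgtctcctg
Erbb3 -37.2 kb, chr10:128462651-128462751: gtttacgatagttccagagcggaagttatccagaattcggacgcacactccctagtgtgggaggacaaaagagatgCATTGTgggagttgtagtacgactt

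The second set holds sites whose level differed between cultures with BEL-treated corpses and with corpses. Erbb3 -0.3 kb is the promoter of Erbb3 and Erbb3 +23.6 kb that of Pa2g4, which encodes an Erbb3-binding protein. Egfr +92.2 kb, Erbb2 +6.7 kb and Fgfr2 +53.1 kb lie in introns 1, 1 and 6, and Met +86.1 and Met +91.2 kb in introns 15 and 16. Erbb2 -20.1 kb lies upstream of Erbb2, and whether it falls within another gene was not checked.
Erbb3 -0.3 kb, chr10:128425762-128425862: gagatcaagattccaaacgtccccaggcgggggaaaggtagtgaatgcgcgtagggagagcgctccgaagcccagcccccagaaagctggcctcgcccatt
Erbb3 +23.6 kb, chr10:128401930-128402030: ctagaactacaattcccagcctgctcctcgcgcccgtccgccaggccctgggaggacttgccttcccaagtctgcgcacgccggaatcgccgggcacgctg
Egfr +92.2 kb, chr11:16794333-16794433: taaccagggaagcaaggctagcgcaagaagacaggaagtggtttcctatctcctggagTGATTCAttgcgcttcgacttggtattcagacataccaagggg
Erbb2 +6.7 kb, chr11:98309849-98309949: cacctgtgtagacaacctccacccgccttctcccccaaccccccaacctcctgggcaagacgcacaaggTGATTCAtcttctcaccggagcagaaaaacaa
Erbb2 -20.1 kb, chr11:98283010-98283110: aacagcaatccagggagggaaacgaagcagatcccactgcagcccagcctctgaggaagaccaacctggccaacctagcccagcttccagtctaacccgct
Fgfr2 +53.1 kb, chr7:129815078-129815178: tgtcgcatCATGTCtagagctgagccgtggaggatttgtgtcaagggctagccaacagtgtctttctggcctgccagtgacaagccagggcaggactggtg
Met +86.1 kb, chr6:17549828-17549928: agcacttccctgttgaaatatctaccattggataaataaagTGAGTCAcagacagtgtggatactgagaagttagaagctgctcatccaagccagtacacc
Met +91.2 kb, chr6:17554914-17555014: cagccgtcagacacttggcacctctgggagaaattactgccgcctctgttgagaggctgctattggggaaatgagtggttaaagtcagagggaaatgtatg

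The AP-1 motif (TGANTCA, searched on both strands) was present around the summit of 39 of the 208 receptor regions, or 18.8%, against 19.5% of all 252803 regions. Among the printed sites it stood in Egfr +58.1, Egfr +92.2, Erbb2 +6.7 and Met +86.1 kb. The KLF/SP motif (GGGCGG) was in 33.3% of the 18 receptor regions at a promoter and in 33.3% of all promoter regions, the p63 motif (CATGTC) in 7.69% of the receptor regions against 5.35% of all, and the motif of nuclear retinoid receptors (AGGTCA) in 5.77% against 6.17%. The TEAD letters (GGAATG) were in 9.13% of the receptor regions and 9.11% of all, and the RUNX letters (TGTGGT) in 11.1% and 11.4%. For the letters AGATAA, bound by the GATA family, the shares were 4.81% and 4.87%, and for SOX (ACAATG) 7.21% and 6.73%. ETS letters (CCGGAAG) were in 0.962% and 0.987%, those of CTCF (AGGGGGC) in 2.88% and 1.92%, and LIM homeodomain letters (TAATTA) in 2.40% and 2.94%. All were searched on both strands, and none of the pairs was tested. These shares describe letters in a window and not binding.

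Across the 34 libraries, 64 of the receptor regions were called in a single library (30.8%, against 31.8% of all regions), 71 in at least 10 and 32 in at least 20 (15.4% against 10.1%). None was called in all 34. The most widely called site, in 33 libraries, was Erbb3 +23.6 kb, the promoter of the neighbouring Pa2g4. Egfr +78.5 kb followed with 30 libraries. It lies in intron 1 of Egfr, 25 bp from the start of Egfros, a transcript antisense to Egfr. The promoter of Erbb3 was called in 30 libraries, those of Egfr and Met (+0.2 kb) in 29 each, that of Fgfr2 (+0.3 kb) in 27, that of Erbb2 (+0.1 kb) in 25 and those of Fgfr1 and Fgfr3 in 24 each. Away from promoters, widely called sites were Egfr +48.5 kb (29 libraries), Met +110.2 kb in the last UTR (28), Met -45.4 kb (27), Met +43.3 kb in intron 3 (26), Egfr +17.3 and Erbb2 +6.7 kb (25 each), Fgfr2 +50.6 kb in intron 6 and Erbb3 +5.1 kb in intron 3 (24 each), Fgfr3 -9.0 kb (21), Fgfr4 -44.7 kb (15) and Fgfr1 +9.0 kb (14).

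Fgfr4, the receptor with the smallest set of regions, stood apart from the other 7 genes by its promoter. Fgfr4 +0.1 kb was called in 5 libraries, all in vivo at CatVII, with 9 to 36 fragments over the summit. In the 4 Rxra WT libraries the summit carried 36, 10 and 9 fragments in replicates 2, 3 and 4 and no call in replicate 1. No culture library had a peak there. The 26 libraries with a peak at Fgfr4 -47.4 kb had it at the promoter of Zfp346, a zinc finger gene.

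Counts of called receptor regions differed widely between libraries, within groups as well as between them. A CatVII Rxra WT library had 46 to 140 of them, an Rxra cKO library 44 to 102, a CatVII wild type library 6 to 61 and the AnaVI libraries 12 and 55. In culture, libraries with corpses had 61 to 93 (Rxra WT) and 65 to 96 (cKO), those with BEL-treated corpses 64 to 83, and those with AA LPC RA 14 and 74 (Rxra WT) and 55 and 61 (cKO). The 4 medium libraries had 1 to 4. In Rxra WT medium 6 regions were called in either library and 0 in both, and in cKO medium 3 in either and 1 in both. The region called in both cKO medium libraries was Erbb3 +23.6 kb, with 16 and 11 fragments over the summit.

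**Figure D1:**
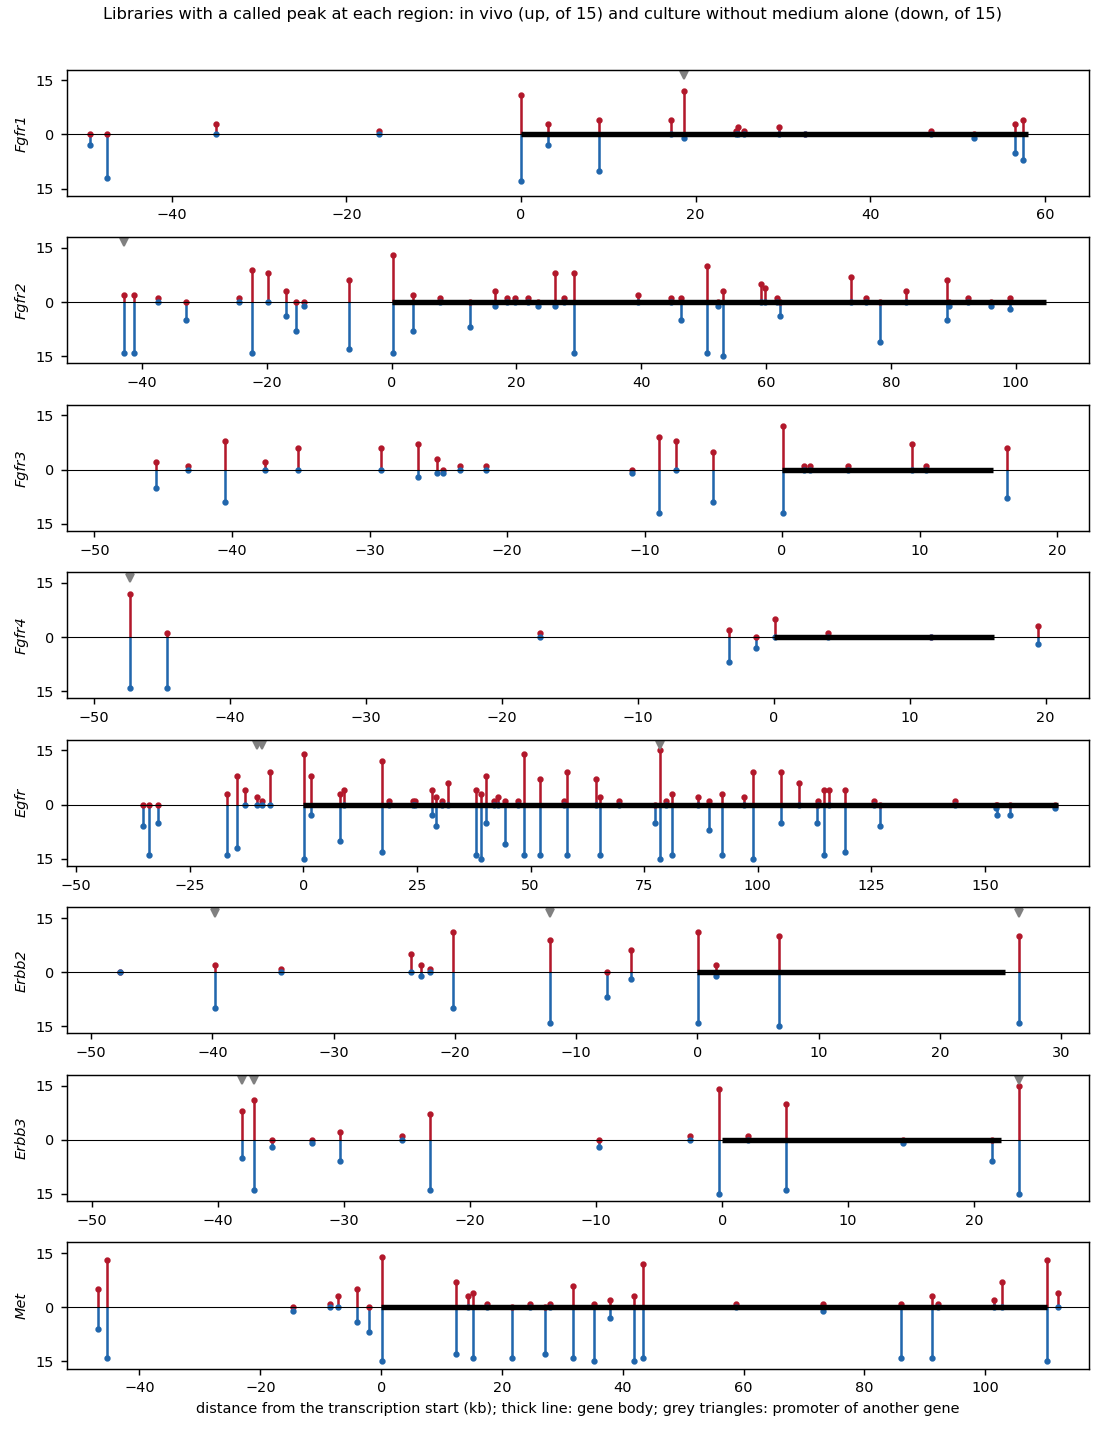
Number of libraries with a called peak at each of the 208 regions, by distance from the gene's start in kb (horizontal axis, direction of transcription to the right), for the 15 in vivo libraries (red, upward) and the 15 culture libraries other than medium (blue, downward). The thick line is the gene body and grey triangles mark the promoter of another gene; Fgfr1 +18.6 kb stands out in vivo, and Fgfr2 -41.2, Met +21.7 and Met +86.1 kb in culture.

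Some receptor regions were listed in skin libraries alone and others in culture libraries alone. To compare lists of equal length, each library's list was held at its 41317 peaks with the highest -log10 p. This left 9 in vivo and 14 culture libraries that were long enough, which still ran from 6260000 to 64200000 estimated fragments. By a rule chosen after the values were seen, a region was taken as in vivo only if listed in at least 5 of 9 in vivo and 0 of 14 culture libraries, and as culture only if listed in at least 8 of 14 culture and 0 of 9 in vivo libraries. Of the 66 receptor regions listed in at least 5 libraries, 12 were in vivo only, where 14.0% of all such regions were. Of the 53 listed in at least 8 libraries, 7 were culture only, where 22.7% of all such regions were. Culture and in vivo libraries also differed in how cells were obtained, which cannot be told apart from growth in culture.

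Fgfr1 +18.6 kb, in intron 2 and at the start of the noncoding Gm31288, was listed in 9 of 9 in vivo libraries and 0 of 14 in culture. It was called in 13 libraries in all. In Rxra WT in vivo its summit carried 24, 134, 34 and 32 fragments, and in Rxra cKO 31, 27 and 180, while the single culture library with a call (Rxra cKO corpses replicate 1) had 7. At Egfr, the receptor for epidermal growth factor, transforming growth factor alpha and amphiregulin, -7.4 and +105.2 kb were listed in 9 in vivo libraries each, +1.6 kb in 8 and +40.3 kb in 5. Fgfr3, a receptor that restrains bone growth and is also expressed in epidermis, had 4 in vivo sites: -40.5 and -7.7 kb in 7 libraries each, +9.4 kb in 6 and -35.2 kb in 5. Erbb2 -5.4 and Erbb3 -38.1 kb were listed in 6 in vivo libraries each and Met +102.7 kb in 5. No region of Fgfr2 or Fgfr4 was in vivo only. With all called peaks counted, 5 of the 12 had no call in culture: Fgfr3 -35.2, Fgfr3 -7.7, Fgfr3 +9.4, Egfr -7.4 and Met +102.7 kb.

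Of the culture sites, 2 lay in intron 1 of Egfr, 3 in Met and 1 each upstream of Fgfr2 and Fgfr4. Egfr +38.0, Egfr +92.2 and Fgfr2 -41.2 kb were listed in 14 of 14 culture libraries, Met +86.1 kb in 13, Met +21.7 kb in 12, and Met +35.2 and Fgfr4 -44.7 kb in 11 each. With all called peaks counted, 1 of the 7, Met +21.7 kb, had no call in vivo, and the other 6 had calls in 1 to 4 in vivo libraries. Fgfr2 -41.2 kb was called in 1 of 4 Rxra WT and 1 of 3 Rxra cKO libraries at CatVII. Met +21.7 kb and Met +27.2 kb, the latter at another start of Met, were called in 14 and 13 libraries, all in culture. Fgfr1 -47.4, Egfr -33.9 and Fgfr2 +78.2 kb were likewise called in 12, 14 and 11 libraries, all in culture. Met, the receptor for hepatocyte growth factor, held 3 of the 7 culture sites.

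**Figure D2:**
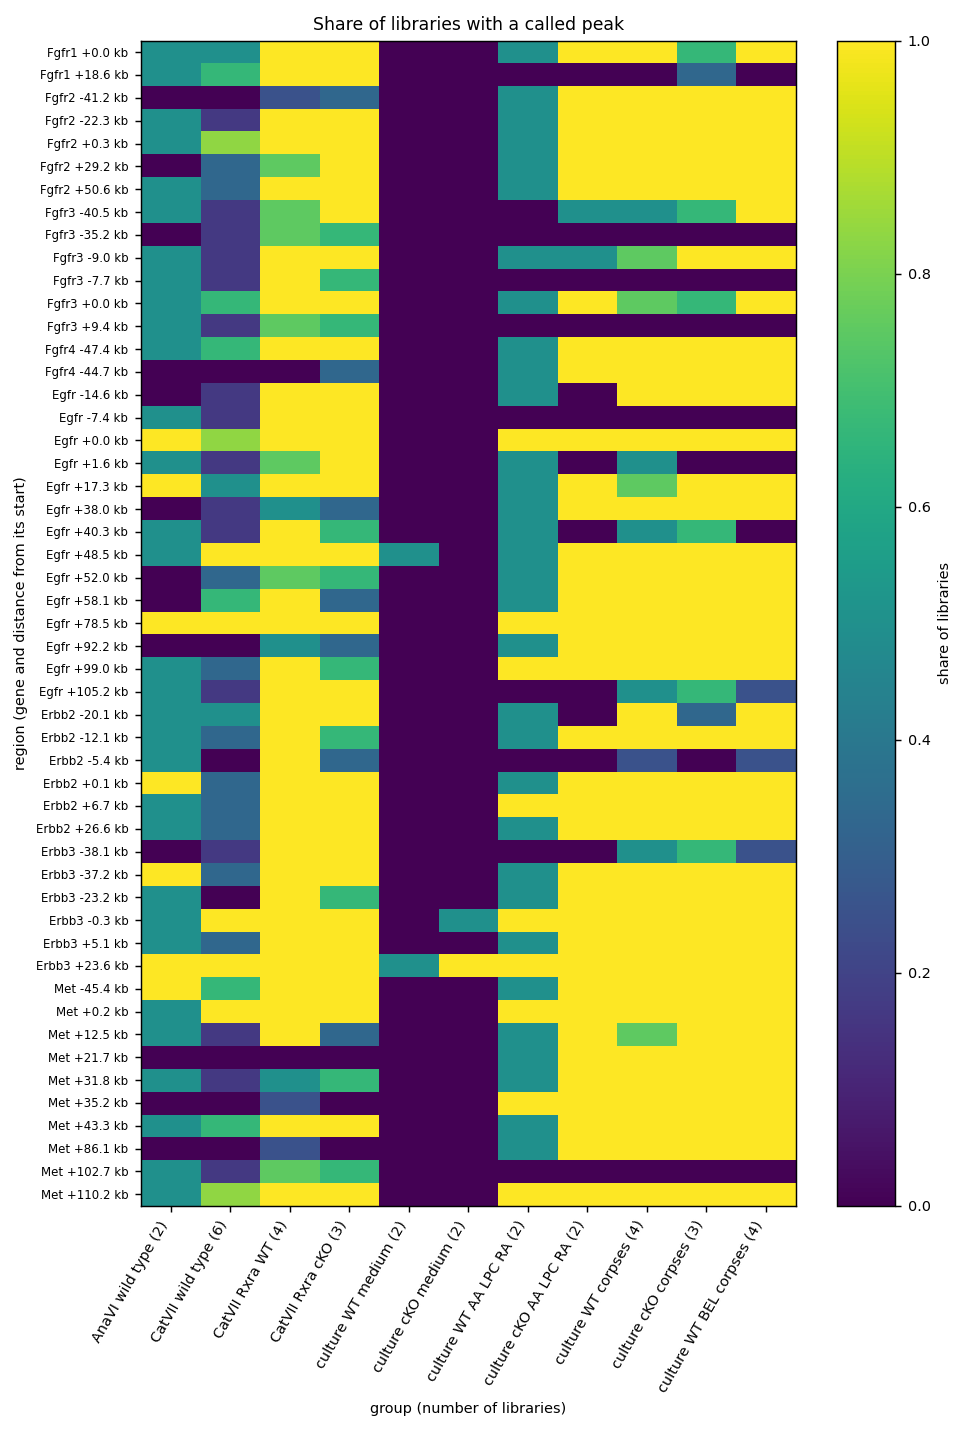
Share of the libraries of each of the 11 groups with a called peak (colour, 0 to 1) at the named receptor regions (rows, by gene and distance from its start). The medium columns are empty except at Egfr +48.5, Erbb3 -0.3 and Erbb3 +23.6 kb; Fgfr3 -35.2, Fgfr3 -7.7, Fgfr3 +9.4, Egfr -7.4 and Met +102.7 kb are filled in vivo only.

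The comparison of CatVII with AnaVI asks which sites open or close as wild type HFSCs pass from growth to late regression, when they engulf corpses. Lists were cut to 8223 peaks each, the length of the shortest list. A region was counted as present in a group only if it was listed in every library of that group and in no library of the other. Egfr +48.5 kb was listed in 6 of 6 CatVII libraries and 0 of 2 AnaVI libraries. Its place in the CatVII lists ran from 681 to 2899 (mean 1929), where 1 is the strongest peak. In AnaVI it had no call in replicate 1 and stood at 49030 in replicate 2. The full AnaVI lists held 14181 and 52325 peaks. The rule itself puts every CatVII place ahead of every AnaVI place, so this separation is no further support. The promoter of Met, +0.2 kb, was listed in 6 of 6 CatVII libraries at 2475 to 7493 (mean 4757) and stood at 49163 in AnaVI replicate 2. These were 2 of 4 receptor regions listed in at least 6 libraries, where 15.7% of all such regions were present in CatVII only. In the other direction, Erbb3 -37.2 kb, the Rps26 promoter, was listed in both AnaVI libraries at 4952 and 3179. It was called in 2 of 6 CatVII libraries, at 10642 and 9025. It was 1 of 12 receptor regions listed in at least 2 libraries, where 9.42% of all were present in AnaVI only.

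AnaVI replicate 1 was the shallowest of the 34 libraries, with 2280000 estimated fragments, and AnaVI replicate 2 held 9330000. The part of depth in these 3 regions was not tested. Without AnaVI replicate 1, 3 receptor regions were present in CatVII only (23.8% of all such regions) and 4 in AnaVI only (14.3%). Without replicate 2 the counts were 2 (36.1% of all) and 4 (17.9%). With all called peaks in place of equal lists, 0 receptor regions were present in CatVII only and 2 in AnaVI only.

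Levels were compared at regions called in all 8 libraries, where the number of fragments over the summit was recovered from each peak's fold enrichment and p-value, scaled to the median ratio between libraries and put on the log2 scale. Only Erbb3 +23.6 and Egfr +78.5 kb qualified. Erbb3 +23.6 kb had levels of 4.37 and 3.77 in AnaVI and 3.71 to 4.72 in CatVII, and Egfr +78.5 kb 4.15 and 4.38 in AnaVI and 3.10 to 4.46 in CatVII, so both overlapped. limma called 0 of the 2 regions, and 0 at an unadjusted p under 0.05. Of all 2388 regions, 4.82% were higher and 5.15% lower in CatVII at an adjusted p under 0.05. Without AnaVI replicate 1, more regions qualified, and Egfr +48.5 kb (log2 difference 2.0, limma adjusted p = 0.00278) and Met +0.2 kb (1.52, adjusted p = 0.0136) were higher in CatVII, as 157 of 3961 regions were. That fit has a single AnaVI library, assumed to vary like the others, and both sites are among those already described as absent from the AnaVI lists.

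The number of listed peaks per gene was compared by limma on log2(peaks + 0.5) for genes with a mean of at least 1. Egfr had 4 and 3 listed peaks in AnaVI and 1, 3, 2, 3, 4 and 5 in CatVII, Erbb3 2 and 2 against 1 to 2, and Met 1 and 1 against 1 to 4. limma called 0 of these 3 genes (0 at an unadjusted p under 0.05), where 4.86% of 6316 genes had more and 1.22% fewer peaks in CatVII.

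The comparison of Rxra cKO with Rxra WT at CatVII asks which sites depend on the retinoid X receptor in vivo. In lists of 41317 peaks, 2 sites in intron 1 of Egfr were present in Rxra WT only. Egfr +58.1 kb stood at 20025, 16488, 21796 and 25065 in Rxra WT replicates 1 to 4, had no call in cKO replicates 1 and 2 and stood at 44782, past the end of the list, in replicate 3. Egfr +40.3 kb stood at 30341, 23468, 35250 and 27169 in Rxra WT, and at 43272 and 51751 in cKO replicates 2 and 3. The third site, Egfr +109.1 kb, was present in cKO only, at 39863, 18245 and 29926, and stood just past the list at 46017 and 46190 in Rxra WT replicates 2 and 3. All 3 sites thus had at least 1 called peak in the other genotype, and with all called peaks counted 0 receptor regions were present in a single genotype. The 2 Rxra WT sites were among 44 receptor regions listed in at least 4 libraries (2.22% of all such regions were Rxra WT only), and the cKO site among 54 listed in at least 3 (0.678% of all were cKO only).

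At the 28 receptor regions called in all 7 libraries, the largest differences lay at Egfr, Met and Fgfr1. Egfr +48.5 kb had levels of 5.29, 6.06, 6.08 and 5.95 in Rxra WT and 5.16, 5.06 and 4.43 in cKO. The groups did not overlap, but the lowest Rxra WT value was that of replicate 1, the library with the same age tag as the cKO. The log2 difference was -0.96 ± 0.25 (SE), with a limma adjusted p = 0.122. Met +43.3 kb had levels of 4.82, 5.08, 4.96 and 5.11 in Rxra WT and 4.32, 4.06 and 3.40 in cKO, without overlap (-1.06 ± 0.29, adjusted p = 0.128). The promoter of Fgfr1 went the other way, with 4.93, 4.69, 4.50 and 4.55 in Rxra WT and 5.37, 5.65 and 5.60 in cKO (0.88 ± 0.24, adjusted p = 0.128). Fgfr3 -9.0 kb had 4.82, 4.48, 4.80 and 4.55 in Rxra WT and 5.37, 5.28 and 5.33 in cKO (0.67 ± 0.25, adjusted p = 0.214).

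None of these differences passed the threshold. The sites were chosen after their values were seen, so the lack of overlap is no further support. limma called 0 of 28 receptor regions, with 6 at an unadjusted p under 0.05 (15.4% of all 20195 regions had such a p), and it called 0% of all regions higher and 0% lower in the cKO. The age tag differed in 3 of 4 Rxra WT libraries, so genotype and age cannot be told apart for these. Without Rxra WT replicate 1, the only one tagged P42, limma gave 3 calls: Egfr +48.5 kb (-1.14, adjusted p = 0.0257), Fgfr2 +29.2 kb (-1.42, adjusted p = 0.026) and Fgfr1 +0.0 kb (0.97, adjusted p = 0.0426), beside 350 regions higher and 370 lower of 21964 in all. Without cKO replicate 1 it gave 2, Egfr +48.5 and Met +43.3 kb, beside 419 higher and 576 lower of 23035. In the lists without that library, 3 of 65 receptor regions were present in cKO only, where 7.82% of all such regions were. In Rxra WT only there were 4 of 40, where 7.62% of all were. Among P42-tagged libraries alone, 4 regions were present in cKO only (5.71% of all such regions) and 6 in Rxra WT only (8.01%), with a single Rxra WT library.

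**Figure D3:**
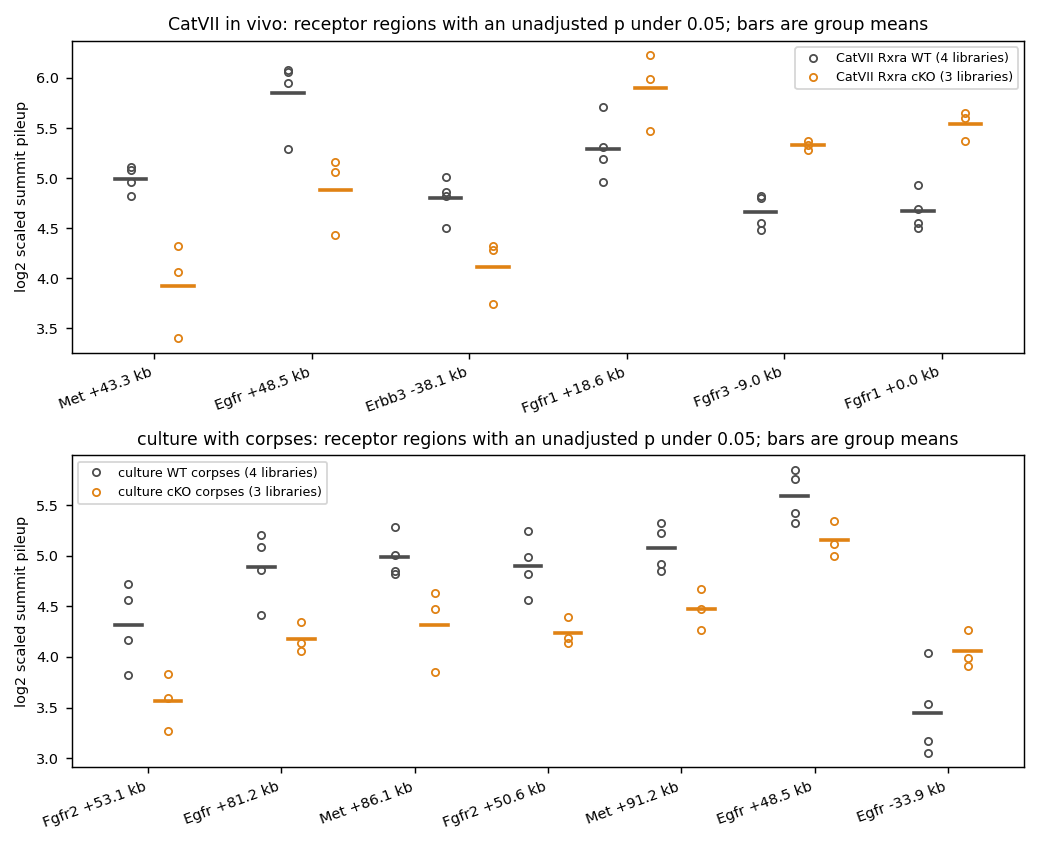
Log2 scaled summit fragments (vertical axis) of each Rxra WT (grey) and Rxra cKO (orange) library at the receptor regions with an unadjusted p under 0.05, at CatVII in vivo (top, 6 regions) and in culture with corpses (bottom, 7 regions). Circles are libraries and bars group means; 0 of these 13 regions passed the adjusted threshold.

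By listed peaks, Met had 7, 9, 7 and 8 in Rxra WT and 6, 6 and 5 in cKO (-0.42 ± 0.11, limma adjusted p = 0.306). The counts did not overlap, but Met was picked by its unadjusted p, so this is no further support. Egfr had 12, 18, 18 and 15 against 10, 12 and 14, and Fgfr2 6, 10, 7 and 8 against 8, 9 and 7. limma called 0 of 8 receptor genes (1 at an unadjusted p under 0.05), where 0.114% of 15742 genes had more and 0.241% fewer peaks in the cKO.

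In culture, Rxra WT cells given corpses were compared with those kept in medium, the contrast that asks what exposure to dying cells changes. The medium lists were the shortest of the series and set the length at 4812 peaks. In those lists Erbb3 -37.2 kb was listed in 4 of 4 corpse libraries, at 964 to 2469 (mean 1888), and was not called in medium. It was 1 of 2 receptor regions listed in at least 4 libraries, where 51.0% of all such regions were present with corpses only. No receptor region of 6 listed in at least 2 libraries was present in medium only, where 11.7% of all were. No receptor region was called in all 6 libraries, so 0 could be tested by level. Of 703 regions that could be, 11.4% were higher and 13.9% lower with corpses.

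Erbb3 had 0 and 1 listed peaks in medium and 2, 2, 2 and 3 with corpses (1.65 ± 0.50, limma adjusted p = 0.0964), and Egfr 0 and 1 against 2, 1, 1 and 1 (0.98 ± 0.54, adjusted p = 0.249). limma called 0 of the 2 genes tested (1 at an unadjusted p under 0.05), where 19.9% of 2344 genes had more and 1.96% fewer peaks with corpses. The medium libraries also differed in depth (4330000 and 4760000 estimated fragments, against 6260000 to 23300000 with corpses), in shortest peak and in HFSC marker promoters, and their part in these counts was not tested. With all called peaks in place of equal lists, 49 receptor regions were present with corpses only and all 8 genes had more peaks, where 93.9% of all regions called in at least 4 libraries were present with corpses only and 16924 of 17610 genes had more peaks. Without medium replicate 4, Erbb3 passed the threshold (2.44, limma adjusted p = 0.012), in a fit with a single medium library, assumed to vary like the corpse libraries, where 284 of 2880 genes had more and 102 fewer peaks. Without that library, 1 receptor region was present with corpses only (60.7% of all such regions) and 2 in medium only (28.9%). Without medium replicate 3 the counts were 1 (72.6% of all) and 3 (31.8%), and without corpses replicate 1 they were 2 (55.3%) and 0 (13.4%).

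Libraries with AA LPC RA entered no test. The 2 Rxra WT libraries held 30900000 and 5750000 estimated fragments. In Rxra WT replicate 1 and both cKO libraries the promoters of Egfr, Erbb2, Erbb3, Fgfr2, Fgfr3, Fgfr1 and Met were called. At Egfr +48.5 kb the summit carried 125 fragments in Rxra WT replicate 1, 41 and 33 in the cKO libraries and no call in Rxra WT replicate 3. At Met +0.2 kb it carried 127 and 18 in Rxra WT and 93 and 64 in cKO.

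The comparison of Rxra cKO with Rxra WT cells given corpses found few candidates at the receptor genes. In lists of 72047 peaks, 0 of 66 receptor regions were present in cKO only (3.69% of all) and 0 of 57 in Rxra WT only (1.96% of all). Of 47 receptor regions called in all 7 libraries, limma called 0, with 7 at an unadjusted p under 0.05 (20.7% of all 43949 regions had such a p), where 3.24% of all regions were higher and 3.08% lower in cKO. Of these 7, 6 had lower values in cKO, a split that was not set beside that of all regions with such a p. Over all 47 receptor regions the median log2 difference was -0.03, against -0.00 over all regions tested. Egfr +81.2 kb had levels of 4.41, 4.86, 5.09 and 5.20 in Rxra WT and 4.06, 4.14 and 4.34 in cKO (-0.71 ± 0.23, limma adjusted p = 0.0557), without overlap. The 7 regions were picked by their unadjusted p, so separation of their groups is no further support. Met +86.1 kb had 4.82, 5.28, 4.85 and 5.01 against 4.47, 3.85 and 4.63 (-0.67 ± 0.22, adjusted p = 0.067). Met +91.2 kb had 5.32, 5.22, 4.92 and 4.85 against 4.47, 4.27 and 4.67 (-0.61 ± 0.21, adjusted p = 0.0718), also without overlap.

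At Fgfr2, the receptor whose epithelial isoform binds Fgf7 and Fgf10, a pair of neighbouring sites in intron 6 had lower values in cKO. Fgfr2 +50.6 kb had levels of 5.24, 4.56, 4.99 and 4.82 in Rxra WT and 4.19, 4.14 and 4.39 in cKO (-0.66 ± 0.22, limma adjusted p = 0.0679). Fgfr2 +53.1 kb had 3.82, 4.17, 4.56 and 4.72 against 3.83, 3.27 and 3.59 (-0.76 ± 0.27, adjusted p = 0.0912), and here replicate 1 of each genotype overlapped. Egfr +48.5 kb, the site with the lower value in cKO in vivo, had 5.32, 5.42, 5.76 and 5.85 against 5.12, 5.0 and 5.34 (-0.44 ± 0.18, adjusted p = 0.146). Without Rxra WT corpses replicate 1, 4 regions passed the threshold, Egfr +48.5, Egfr +81.2, Met +86.1 and Fgfr2 +53.1 kb, all lower in cKO, where 3159 of 50064 regions were higher and 2690 lower. Scaling by estimated fragments called Egfr +81.2 kb alone among the receptor regions, where 365 of all 43949 regions were higher and 1446 lower.

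Erbb2 had 6, 7, 7 and 5 listed peaks in Rxra WT and 5, 4 and 5 in cKO (-0.38 ± 0.16, limma adjusted p = 0.243), and Fgfr1 4, 3, 3 and 4 against 2, 2 and 3 (-0.50 ± 0.21, adjusted p = 0.24). limma called 0 of 8 genes (2 at an unadjusted p under 0.05), where 0.912% of 17874 genes had more and 1.01% fewer peaks in cKO.

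With BEL-treated corpses, the levels at 16 of the 49 receptor regions tested differed from those with corpses, 11 higher and 5 lower. Most of the regions that rose were promoters, and most that fell lay in introns of Met and Egfr. Of all 42461 regions tested, 20.5% were higher and 15.1% lower. Promoter regions as a class were shifted up: 63.3% of 9733 promoter regions were higher and 1.71% lower (median log2 difference 0.51), while 7.76% of 32728 other regions were higher and 19.1% lower (median -0.17). Among the receptor regions, 8 of 12 at promoters were higher and 2 lower (median 0.76), and 3 of the 37 distal ones were higher and 3 lower (median 0.00). The shortest peak was 144 to 145 bp with BEL-treated corpses and 60 to 104 bp with corpses, so fragment length and treatment cannot be told apart here. Receptor values are therefore given beside the median of their class. Most sites described below were chosen because they passed the threshold, so separation of their groups is no further support.

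**Figure D4:**
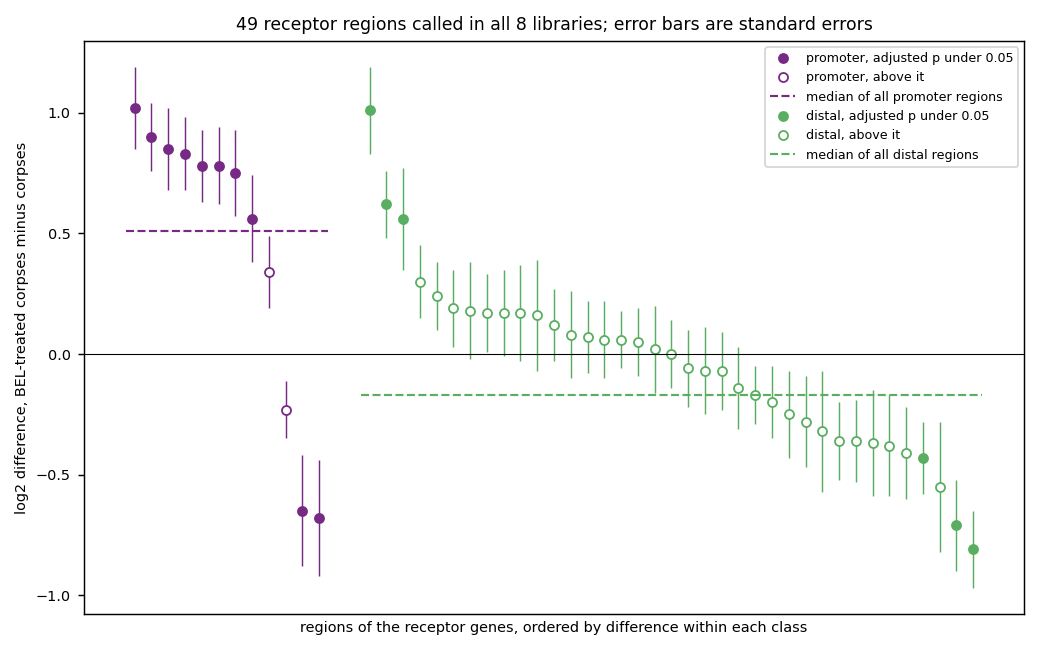
Log2 difference of summit level, BEL-treated corpses minus corpses (vertical axis), at the 49 receptor regions called in all 8 libraries, ordered by size within promoter (purple) and distal (green) regions. Error bars are standard errors, filled circles passed the adjusted threshold and dashed lines are the medians of all promoter (0.51) and all distal (-0.17) regions; 2 promoters and 3 distal sites were lower and passed.

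Among the receptor regions at promoters, that of Erbb2 had the largest rise. Its levels were 4.95, 5.83, 5.61 and 5.21 with corpses and 6.48, 6.23, 6.47 and 6.49 with BEL-treated corpses, a difference of 1.02 ± 0.17 (SE, n = 4 and 4, limma adjusted p = 0.000179). Every library with BEL-treated corpses lay above every library with corpses. The promoter of Erbb3 had 5.65, 5.44, 6.09 and 5.88 against 6.64, 6.76, 6.77 and 6.49 (0.90 ± 0.14, adjusted p = 0.000135). The promoter of Met had 5.53, 5.19, 5.49 and 5.86 against 6.33, 6.19, 6.55 and 6.33 (0.83 ± 0.15, adjusted p = 0.000347). Neither pair of groups overlapped. The promoter of Fgfr2 had 5.27, 4.99, 4.87 and 4.83 against 5.99, 5.92, 5.58 and 5.60 (0.78 ± 0.16, adjusted p = 0.00119), and that of Egfr 4.95, 5.99, 5.70 and 5.29 against 6.19, 6.17, 6.34 and 6.23 (0.75 ± 0.18, adjusted p = 0.00323). The other 3 promoters that rose belong to neighbouring genes: Mien1 at Erbb2 +26.6 kb (0.85 ± 0.17), Pa2g4 at Erbb3 +23.6 kb (0.78 ± 0.15) and Zfp346 at Fgfr4 -47.4 kb (0.56 ± 0.18).

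The promoter of Fgfr1 went against its class. It had levels of 5.12, 4.51, 4.75 and 4.60 with corpses and 3.70, 3.77, 4.47 and 4.42 with BEL-treated corpses (-0.65 ± 0.23, limma adjusted p = 0.0337), without overlap. The other start of Met, at +27.2 kb, also fell, from 4.27, 4.36, 4.79 and 5.12 to 3.55, 3.87, 4.23 and 4.18 (-0.68 ± 0.24, adjusted p = 0.0338). Within Met, then, the promoter at +0.2 kb rose and that at +27.2 kb fell. The rise no longer passed with promoters scaled separately. The falls at Met +27.2 and Fgfr1 +0.0 kb each failed under 5 of 12 other alternatives. Only 1.71% of all promoter regions were lower.

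Distal sites moved in both directions. Fgfr2 +53.1 kb, in intron 6, had 4.53, 4.89, 5.28 and 5.43 with corpses and 6.25, 6.05, 6.02 and 5.85 with BEL-treated corpses (1.01 ± 0.18, limma adjusted p = 0.000331), while its neighbour Fgfr2 +50.6 kb had 5.95, 5.28, 5.70 and 5.54 against 5.92, 5.58, 6.03 and 5.60 and overlapped. In intron 1 of Erbb2, +6.7 kb rose from 5.41, 5.83, 6.04 and 5.80 to 6.39, 6.30, 6.46 and 6.40 (0.62 ± 0.14, adjusted p = 0.00221), and Erbb2 -20.1 kb rose by 0.56 ± 0.21 (adjusted p = 0.0478). With the promoter, 3 sites in the Erbb2 window that are not at another gene's promoter were thus higher. The call at Erbb2 -20.1 kb failed under 6 of 11 alternatives.

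The distal sites that fell were in Met and Egfr. Met +91.2 kb had 6.04, 5.94, 5.64 and 5.57 with corpses and 4.84, 4.87, 5.10 and 5.16 with BEL-treated corpses (-0.81 ± 0.16, limma adjusted p = 0.00083), and no library overlapped. Egfr +92.2 kb had 6.34, 5.83, 5.57 and 6.16 against 5.36, 4.72, 5.53 and 5.45 (-0.71 ± 0.19, adjusted p = 0.00711). Met +86.1 kb had 5.53, 5.99, 5.57 and 5.72 against 5.16, 5.32, 5.34 and 5.30 (-0.43 ± 0.15, adjusted p = 0.0336). Egfr +92.2 and Met +86.1 kb are also culture-only sites. Sites with strong peaks in both groups, such as Egfr +48.5 kb (6.04, 6.14, 6.48 and 6.57 against 6.24, 6.30, 6.45 and 6.46) and Met +43.3 kb (6.34, 6.40, 6.94 and 6.80 against 6.35, 6.72, 6.66 and 6.76), overlapped.

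**Figure D5:**
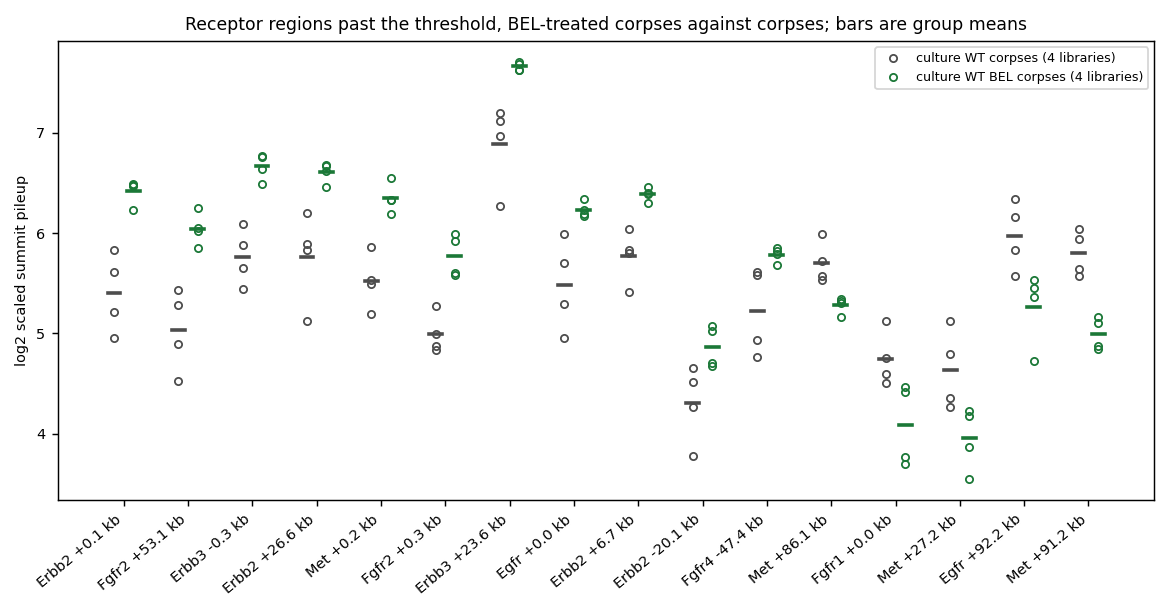
Log2 scaled summit fragments (vertical axis) of the 4 libraries with corpses (grey) and the 4 with BEL-treated corpses (green) at the 16 receptor regions past the adjusted threshold. Circles are libraries and bars group means. Of the 16 regions, 11 were higher and 5 lower with BEL-treated corpses, where 20.5% and 15.1% of all 42461 regions tested were.

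The split of 11 higher and 5 lower depended on the scaling. Scaling by estimated fragments gave 10 higher and 1 lower, Met +91.2 kb, where 5937 of all 42461 regions were higher and 1361 lower. Scaling promoter and distal regions each to its own median, an alternative chosen after seeing the data, gave 6 higher and 5 lower: Erbb3 -0.3 (0.40), Erbb2 +0.1 (0.51), Erbb2 +6.7 (0.77), Erbb2 -20.1 (0.71), Fgfr2 +53.1 (1.16) and Egfr +99.0 kb (0.45) were higher, and Fgfr1 +0.0 (-1.15), Met +27.2 (-1.18), Met +91.2 (-0.66), Egfr +92.2 (-0.57) and Erbb3 -37.2 kb (-0.73) lower. Under this scaling 5497 of all 42461 regions were higher and 4349 lower, and the promoters of Egfr, Met and Fgfr2 no longer passed. Leaving out BEL replicate 1 gave 9 higher and 2 lower, beside 7673 and 4672 of all 43207 regions. Leaving out BEL replicate 2 gave 10 and 2, beside 7584 and 4381 of all 44824.

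In lists of 63739 peaks, Egfr +44.3 kb and Fgfr1 +9.0 kb were present in 4 of 4 libraries with BEL-treated corpses and in none with corpses. They were 2 of 60 receptor regions listed in at least 4 libraries, where 2.24% of all were present with BEL-treated corpses only. Egfr +44.3 kb stood at 52902, 31300, 55976 and 54639, and Fgfr1 +9.0 kb at 61972, 52470, 61446 and 60866, close to the end of the list. Both were called past the list in 2 corpse libraries. With all called peaks, 0 regions were present in a single group. None of the 60 was present with corpses only, where 0.724% of all were. By listed peaks, Fgfr3 had 0, 3, 1 and 2 with corpses and 4, 4, 5 and 4 with BEL-treated corpses (1.56 ± 0.59, limma adjusted p = 0.181), and Erbb3 had 7, 7, 6 and 7 against 6, 5, 5 and 6 (-0.28 ± 0.08, adjusted p = 0.138). limma called 0 of 8 receptor genes (2 at an unadjusted p under 0.05), where 1.56% of 17492 genes had more and 2.08% fewer peaks.

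The other genes of these pathways were followed by listed peaks per gene, in 4 lists of 19 ligands, 10 other receptors and co-receptors, 20 adaptors and relay proteins, and 17 targets and inhibitors. With BEL-treated corpses, 3 of 17 targets and inhibitors tested had more peaks and 0 fewer: the feedback inhibitors Spry1 (0.49 ± 0.02, limma adjusted p = 1.85e-05) and Spry2 (0.80 ± 0.14, adjusted p = 0.0281) and the FGF target Etv5 (0.36 ± 0.02, adjusted p = 3.03e-05). The median over the list was 0.23, against 0.00 over all genes. Listed peaks are whole numbers, and an SE of 0.02 arises where they are tied or nearly tied within groups. A small step in the count then gives a very small p-value. Among 16 ligands tested, Fgf22 and Nrg2 had more peaks (0.87 ± 0.14 and 0.40 ± 0.07), among 20 adaptors Akt1 had more (0.18 ± 0.03), and among 10 receptors the decoy Fgfrl1 had fewer (-0.38 ± 0.06). Of all 17492 genes, 1.56% had more and 2.08% fewer peaks with BEL-treated corpses. With corpses against medium, the ligand Epgn, the adaptor Shc1 and the inhibitor Spred2 had more peaks (2.38, 2.26 and 1.95), and Erbb4, a neuregulin receptor, had fewer (-3.25 ± 0.26, adjusted p = 0.00214). These were 1 of 2 ligands, 1 of 4 adaptors, 1 of 5 targets and inhibitors and 1 of 4 receptors tested, where 19.9% of all 2344 genes had more and 1.96% fewer peaks. The medium libraries differed in depth, shortest peak and marker promoters, as given above. The part of these in the calls was not tested.

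In cKO cells given corpses, Erbb4 had more peaks than in Rxra WT (1.68 ± 0.28, limma adjusted p = 0.0155), and no other gene of the 4 lists passed. Of all 17874 genes, 0.912% had more and 1.01% fewer peaks there. At CatVII against AnaVI, 2 of 8 targets and inhibitors tested passed, Egr1 with more peaks (1.95 ± 0.29, adjusted p = 0.0106) and Etv5 with fewer (-1.10 ± 0.22, adjusted p = 0.0367). Of all 6316 genes, 4.86% had more and 1.22% fewer peaks in CatVII. Between Rxra cKO and Rxra WT at CatVII limma called 0 genes of the 4 lists, with 3 ligands, 1 receptor, 3 adaptors and 4 targets and inhibitors at an unadjusted p under 0.05. Such a p was found for 12.9% of all 15742 genes. The corpse libraries of Rxra WT entered 3 of these comparisons, which are therefore not independent of each other.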

How the data were processed

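ATAC-seq peak lists of 34 libraries in 11 groups were analysed. Reads were mapped by the authors with BWA-MEM (0.7.18) against mm39, and handled with SAMtools (1.17, with 1.9 also named in the submitters' processing notes), and peaks were called in each library with MACS3 3.0.0 on paired fragments without a control. For each peak the authors deposited the fold enrichment over local background (a ratio) and −log10 p and −log10 q values, cut at q 0.05. No read counts were used. Fragments over the summit were recovered here from fold enrichment and −log10 p, and 99.98 to 100% of them came out whole in each library (tolerance 0.05). Fragment totals were estimated from the lowest local background.

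Peaks on chromosomes 1 to 19, X and Y that overlapped by at least 1 bp in any library were merged. Gene bodies were the span of the consensus coding transcripts of GENCODE vM39, since the whole Fgfr2 annotation includes long readthrough transcripts. Presence was compared in lists of equal length, ranked by −log10 p, as listed in every library of a group and in none of the other. Levels (log2 summit fragments, scaled to the median ratio, regions called in every library) and listed peaks per gene (log2 of the count plus 0.5, mean at least 1) were tested with limma 3.58.1 in R 4.3.3 over all regions or genes, two-sided, with Benjamini-Hochberg adjustment and a threshold of 0.05. No replicate block was used, since the correlations of same-numbered libraries did not meet the criterion for pairing (over 0.1 in every pair). Each fit held only the groups compared.

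Named sites were, for each gene, the most widely called promoter and distal region and, for each comparison and direction, up to 3 regions present in a single group and up to 3 past the limma threshold. Other sites described (those with an unadjusted p under 0.05, the rest of the 16 called regions, and the in vivo and culture sites) were chosen after their values were seen. The genes, the pathway lists and the marker lists were chosen with earlier results of these data known. Scripts ran in Python 3.11.15 with pandas 2.3.3 and numpy 2.4.6, and the tests were tried on simulated data first, where the level fit of CatVII against AnaVI made more false calls than its threshold allows. Alternatives covered list length, window, filters, pseudocount, scaling, the replicate block and leaving out each library.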

Additional observations from a re-analysis of the deposited data

Results flagged for a closer look

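In 16 of 80 checks of groups of 4 to 10 libraries, 1 library stood apart from the others by Dixon's criterion, which chance alone meets in about 5% of groups. The values of 15 of these are small whole numbers of listed peaks, where the other libraries were tied, so that any difference meets the criterion. For the log2 level of the Erbb2 promoter with BEL-treated corpses, replicate 2 had 6.23 and the others 6.47 to 6.49.

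With BEL-treated corpses, in the lists compared with corpses, replicate 1 had 5 peaks at Fgfr1 (the others 4), replicate 4 had 10 at Fgfr2 (11), replicate 3 had 5 at Fgfr3 (4), replicate 2 had 20 at Egfr (19) and replicate 2 had 14 at Met (13). In Rxra WT cultures with corpses, replicate 1 had 11 peaks at Fgfr2 (13) in the lists compared with cKO, 3 at Fgfr4 (2) in the lists compared with cKO and again 3 (2) in those compared with BEL-treated corpses, and 2 at Egfr (1) in the lists compared with medium. Replicate 4 had 3 at Erbb3 (2) in the lists compared with medium, and replicate 3 had 6 at Erbb3 (7) in those compared with BEL-treated corpses. At CatVII, Rxra WT replicate 1 had 3 peaks at Fgfr1 (4) and 8 at Erbb2 (6), Rxra WT replicate 4 had 7 at Erbb3 (6), and wild type replicate 4 had 1 at Fgfr4 (0).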

How the results depend on the processing

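With all called peaks, the number of receptor regions present in a single group was 2 for CatVII against AnaVI (3 in the report), 0 for cKO against Rxra WT at CatVII (3), 49 for corpses against medium (1), 3 for cKO against Rxra WT with corpses (0) and 0 for BEL-treated corpses against corpses (2), and 8 receptor genes instead of 0 had more peaks with corpses than in medium. In this order, 1.93%, 0.356%, 93.9%, 3.53% and 0.594% of all such regions were present in the first-named group only. In the second only there were 4.19%, 1.03%, 0.619%, 0.408% and 1.06%, and 16924 of all 17610 genes had more peaks with corpses. With lists cut to 0.5 of their length the counts were 1 for CatVII against AnaVI (3), 1, 0, 2 and 1 in the same order, and 1 receptor gene passed for corpses against medium, where 184 of 770 genes had more peaks. Of all such regions, 18.8%, 0.758%, 48.9%, 3.71% and 3.12% were then in the first group only. In the second only there were 8.78%, 1.70%, 13.3%, 2.34% and 1.14%. With a window of 10 kb upstream the count for corpses against medium was 0 (51.0% and 11.7% of all such regions). With P42-tagged libraries alone that for cKO at CatVII was 10 (5.71% and 8.01% of all). Leaving out 1 library at a time gave 3 to 7 regions for CatVII against AnaVI (7 without AnaVI replicate 1, 6 without replicate 2), 3 to 7 for cKO at CatVII (7 without cKO replicate 1), 1 to 4 for corpses against medium and 0 to 4 for cKO with corpses (4 without Rxra WT replicate 1). For the last, 4.30% of all such regions were in cKO only and 3.17% in Rxra WT only. The shares for the other named libraries are given above. The number of regions that differed in level ran from 0 to 2 for CatVII against AnaVI, 0 to 3 for cKO at CatVII and 0 to 4 for cKO with corpses, and the number of genes for corpses against medium from 0 to 1. Scaling by estimated fragments gave 1 region for cKO with corpses, where 365 of all 43949 regions were higher and 1446 lower. The causes were not tested.

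Same-numbered libraries share the Phago or NonPhago tag for BEL-treated corpses against corpses, for cKO with corpses and for replicates 1 and 2 at CatVII, but the labels do not say that a number marks a shared batch. The correlations of their deviations were 0.03, -0.20 and -0.09 for cKO at CatVII, 0.04 and -0.14 for corpses against medium, 0.14, 0.07 and 0.22 for cKO with corpses, and 0.14, 0.06, -0.01 and 0.30 for BEL-treated corpses. With the replicate block, 1 region passed for cKO with corpses (Met +91.2 kb, -0.68, limma adjusted p = 0.0425), BEL-treated corpses gave 16 calls, and no other count of calls moved. With 3 or more pairs, 0 of 6, 5 of 6 and 4 of 8 libraries correlated best with their own number.

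Of the 16 sites called with BEL-treated corpses, 10 passed under all 12 alternatives other than the separate scaling of promoters. Met +86.1 kb failed under 7 of 12, Erbb2 -20.1 kb under 6 of 11, Met +27.2 and Fgfr1 +0.0 kb under 5 of 12, Fgfr4 -47.4 kb under 4 of 11 and Egfr +92.2 kb under 1, and none changed direction. Scaling by estimated fragments moved the median of all regions to -0.85, -0.18, 1.03, -0.20 and 0.08 in the order of the report. A site without a call has no level, so shallow libraries limit which regions could be tested.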
